A study of Mus musculus with 2 samples.

Results

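The genes described here are those of the MHC class I pathway of the mouse, 30 of the 17134 genes in the deposited table. They were chosen by symbol: every H2-D, H2-K, H2-L, H2-Q, H2-T or H2-M gene except the class II genes H2-DMa, H2-DMb1 and H2-DMb2, together with B2m, Tap1, Tap2, Tapbp, Psmb8, Psmb9, Psmb10, Psme1, Psme2, Erap1 and Nlrc5. The rule itself uses no measured value, though it was written with earlier results of these data known. Of the 30, 18 were H2 genes for heavy chains or heavy chain-like products and 11 were genes for the light chain, peptide supply, loading and control. The last, H2-Ke6, matched the symbol rule but encodes a hydroxysteroid dehydrogenase and is not a class I gene. It is counted among the 30 and left out of the heavy chain sums.

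The RNA came from tuft cells, rare chemosensory cells of the gut epithelium, sorted from the small intestine of naive mice as EpCAM+ SiglecF+ cells. There was 1 library per genotype. The library called WT carries the genotype label Spib+Villin-cre and the library called Spib_KO the label Spibfl/flVillin-cre, so Villin-cre, which expresses Cre recombinase across the intestinal epithelium, is in both labels. The product of Spib is Spi-B, an ETS factor that regulates transcription. The labels give no strain, sex, age or number of mice, and they do not say which part of Spib is deleted. H2 genes differ between mouse strains in number and sequence, and a difference of H2 haplotype between the groups cannot be told apart from a difference of genotype.

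Reads counted in genes came to 17925421 for WT, over 16085 genes, and to 17228665 for Spib_KO, over 15437 genes. Spib gave 6266 reads in WT against 48 in Spib_KO, and its log2 ratio of -6.95 lay in the direction of the labels. Of 20 tuft cell markers 20 were measured, and 1 of them (Plcb2) fell and 0 rose, with a median log2 ratio of 0.10. Epcam and Siglecf are among the 20, and the cells were sorted on the products of these genes. With 1 library per genotype no difference had a replicate check and no test between genotypes could be made. Each ratio is Spib_KO over WT on the log2 scale, from normalised read counts (CPM) with TMM scaling, and is followed in parentheses by its 95% interval. The interval is an exact binomial one and covers counting error only. Genes counted as measured when either library gave them at least 5 CPM and at least 30 reads. Such a gene was called higher or lower where the interval bound nearest 0 was at least 1 (2-fold). In bulk RNA, fewer cells of a type and less RNA per cell cannot be told apart.

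MHC class I molecules display peptides from inside the cell to CD8 T cells and to receptors of natural killer cells. A heavy chain, encoded by an H2 gene, pairs with the light chain beta-2 microglobulin and holds a peptide. Peptides are cut by the proteasome, in which inducible catalytic subunits can replace the constitutive ones, are pumped into the endoplasmic reticulum by the TAP transporter, are trimmed there by ERAP1 and are loaded with the help of tapasin. The classical heavy chains H2-K and H2-D present peptides to most CD8 T cells. Non-classical heavy chains include Qa-1, which binds the NKG2A receptor, the Qa-2 family, and the thymus leukaemia antigen TL, a ligand of CD8 alpha homodimers that is made by the intestinal epithelium. Interferon and NLRC5 are known to raise many of these genes together.

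Because the H2 genes arose by duplication, their promoters are partly copies of each other, and they are shown to let the copies be compared. Each line below gives the 250 bases before an annotated transcript start, from RefSeq on GRCm38.p6, written 5′ to 3′ along the gene's strand. Capitals mark GGGGATTCCC, a site of the NF-kB type, and AGTTTCACTT, the core of the interferon response sequence of classical class I promoters. These letters were chosen after the promoters had been looked at and were copied from the H2-D1 promoter, so H2-D1 matches both by construction.
H2-D1 (chr17:35262844-35263093, plus strand): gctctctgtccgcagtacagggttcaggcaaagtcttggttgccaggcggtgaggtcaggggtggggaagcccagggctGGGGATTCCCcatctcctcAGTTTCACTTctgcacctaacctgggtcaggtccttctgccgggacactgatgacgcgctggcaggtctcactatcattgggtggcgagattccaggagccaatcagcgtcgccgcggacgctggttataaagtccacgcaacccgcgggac
H2-Q2 (chr17:35342057-35342306, plus strand): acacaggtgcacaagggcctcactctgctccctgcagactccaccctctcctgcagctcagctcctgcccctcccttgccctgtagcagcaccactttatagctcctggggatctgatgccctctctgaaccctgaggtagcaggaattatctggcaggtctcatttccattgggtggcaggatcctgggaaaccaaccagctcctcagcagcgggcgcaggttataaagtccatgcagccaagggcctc
H2-Q4 (chr17:35379367-35379616, plus strand): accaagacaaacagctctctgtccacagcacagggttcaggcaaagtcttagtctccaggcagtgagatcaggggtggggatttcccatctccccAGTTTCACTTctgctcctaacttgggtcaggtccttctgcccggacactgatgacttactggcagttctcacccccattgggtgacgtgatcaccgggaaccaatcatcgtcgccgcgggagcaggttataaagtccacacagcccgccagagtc
H2-Q6 (chr17:35424600-35424849, plus strand): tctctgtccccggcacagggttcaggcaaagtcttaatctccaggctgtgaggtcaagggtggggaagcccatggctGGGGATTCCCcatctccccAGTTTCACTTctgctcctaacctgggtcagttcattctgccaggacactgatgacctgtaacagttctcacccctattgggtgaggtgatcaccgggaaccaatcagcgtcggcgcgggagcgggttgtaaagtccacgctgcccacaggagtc
H2-Q7 (chr17:35438905-35439154, plus strand): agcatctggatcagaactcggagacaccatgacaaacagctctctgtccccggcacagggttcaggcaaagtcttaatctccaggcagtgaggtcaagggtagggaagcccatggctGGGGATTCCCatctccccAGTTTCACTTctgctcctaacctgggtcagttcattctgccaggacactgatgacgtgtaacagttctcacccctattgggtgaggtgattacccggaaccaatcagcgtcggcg
H2-T3 (chr17:36190152-36190401, minus strand): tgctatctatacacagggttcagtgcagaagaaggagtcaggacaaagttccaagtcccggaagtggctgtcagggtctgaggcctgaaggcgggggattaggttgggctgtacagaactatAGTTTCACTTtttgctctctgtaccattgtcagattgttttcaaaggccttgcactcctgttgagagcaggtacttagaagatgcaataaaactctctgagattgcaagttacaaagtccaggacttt

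The H2-Q6 and H2-Q7 promoters were identical at 205 of 211 aligned bases (97.2%), and H2-D1 and H2-Q6 at 207 of 248 (83.5%). H2-Q4 and H2-Q6 were identical at 209 of 251 aligned bases (83.3%). H2-D1 and H2-Q2 aligned over 91 bases only, with 71 identical (78.0%). The transcript start used for H2-Q7 lies inside the annotated span of that gene, so its window is offset from that of H2-Q6. Both strands of 27025 promoters of this length were searched, 23 of them of the class I pathway genes. AGTTTCACTT was found in 40 promoters (0.148%), of which 8 belonged to H2-D1, H2-K1, H2-Q4, H2-Q6, H2-Q7, H2-Q10, H2-T3 and H2-T22. GGGGATTCCC was found in 22 promoters (0.0814%), 4 of them those of H2-D1, H2-K1, H2-Q6 and H2-Q7. The Spi-type letters GAGGAAGT were in 660 promoters (2.44%) and in 0 of the 23. CCGGAAGT, which shares its last 6 letters with them, was in 792 promoters (2.93%) and, among the 23, in that of H2-T3. The short CCAAT box was in 9314 promoters (34.5%) and in 16 of the 23. Exact letters only were counted, so close variants of a site, such as the one in the H2-Q4 window at the place of the NF-kB letters of H2-Q7, were not. A match describes letters in this window, and the promoters of near copies are not independent of each other.

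Most reads of the class I pathway came from the classical heavy chains and the light chain. All 30 genes together took 141712 reads in WT (0.791% of all reads) and 147521 in Spib_KO (0.856%). By deposited TPM, a level per transcript length, the order in WT began with H2-D1, B2m, H2-K1, Psme2, Psme1, Psmb10 and H2-T23, and H2-T23 stood above Psmb10 and Psme1 in Spib_KO. H2-D1, a classical heavy chain, had 2772 TPM in WT and 3030 in Spib_KO. B2m, the light chain, had 2171 and 2623 TPM. The 18 heavy chain genes summed to 1.95 times the TPM of B2m in WT and 1.82 times in Spib_KO. The 2 classical genes made up 84.9% of the summed heavy chain TPM in WT and 84.7% in Spib_KO, so the other 16 heavy chain genes shared about the same part in both.

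**Figure D1:**
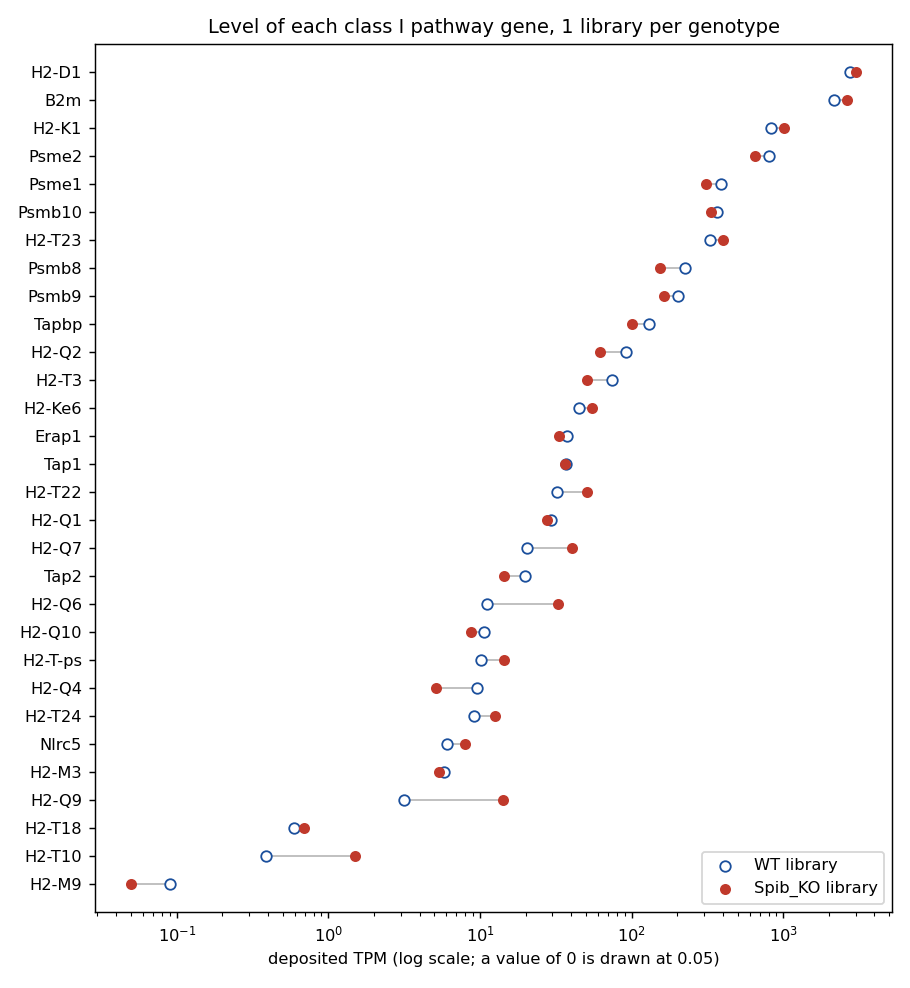
Deposited TPM of the 30 genes on a log axis, with 1 open point for the WT library and 1 filled point for the Spib_KO library per gene, joined by a line. H2-D1 is the highest gene in both libraries, and the widest gaps among measured genes are those of H2-Q9, H2-Q6 and H2-Q7.

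Of the 27 measured genes, 2 rose and 0 fell, where 2.33% of the 10707 measured genes of the table were called higher and 2.18% lower. The 2 were H2-Q6 and H2-Q9, both Qa-2 heavy chain genes. Where 0 genes of a short list are called below, that lies near these shares of the whole table. The median log2 ratio of the 27 was -0.07, beside 0.01 over all measured genes (quartiles -0.26 and 0.28), with 13 genes above 0 and 14 below. At a bound of 1.5-fold H2-Q7 joined them, making 3 higher and 0 lower, beside 5.59% and 5.52% over all genes. The sign of the list's middle depended on which genes were taken. The 15 measured heavy chain genes had a median of 0.32, with 9 above 0, and the 11 genes other than H2 a median of -0.24, with 8 below 0. When scaled to the tuft cell markers in place of TMM, every ratio was lower by about 0.10 and the median of all measured genes was -0.09. All-gene calls were then 184 higher and 285 lower in place of 250 and 233, and the 27 still held 2 higher and 0 lower.

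**Figure D2:**
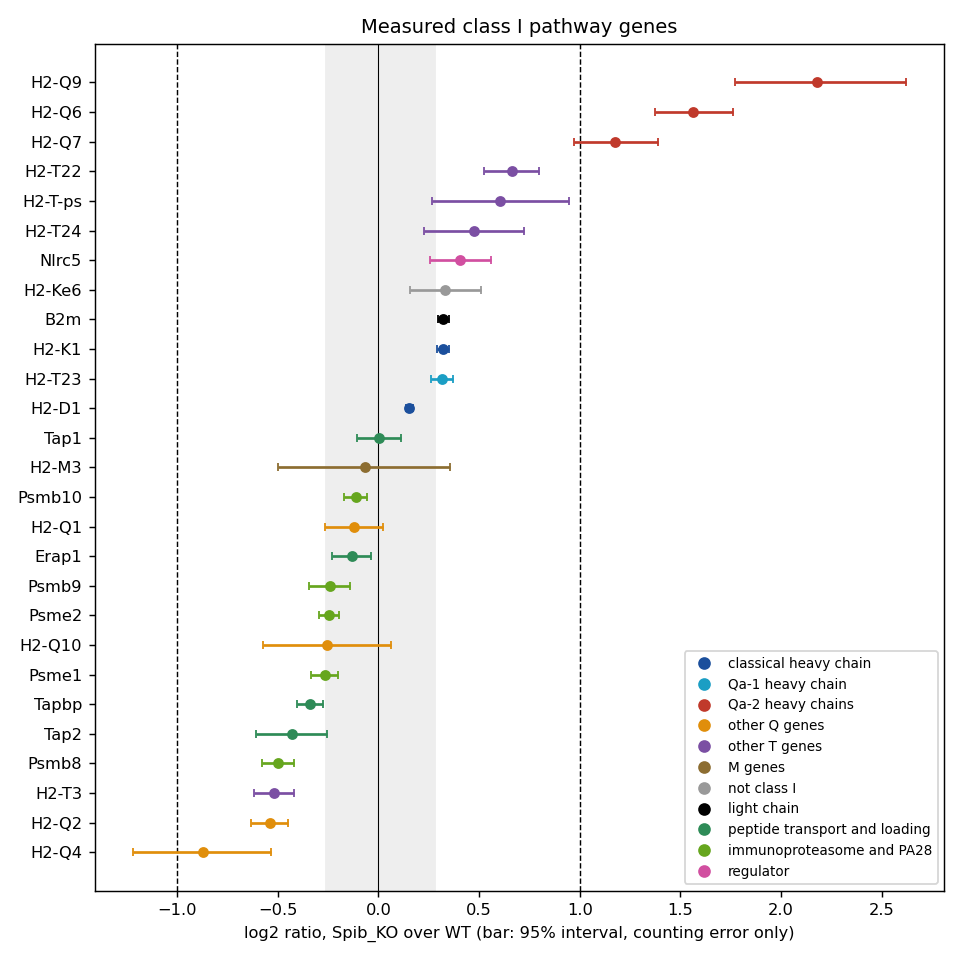
Log2 ratio of Spib_KO over WT for the 27 measured genes, coloured by role. Bars are 95% intervals for counting error only, dashed lines mark a 2-fold difference and the grey band spans the quartiles of all measured genes, -0.26 to 0.28. H2-Q9 and H2-Q6 lie wholly beyond the 2-fold line, and the bar of H2-Q7 crosses it.

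The classical heavy chains and their light chain were slightly higher in Spib_KO and far from the 2-fold bound. H2-D1 (chromosome 17, 35263094 to 35267497, GRCm38.p6) had 59907 reads in WT and 63566 in Spib_KO, or 3329 and 3704 CPM, a log2 ratio of 0.15 (0.14 to 0.17). H2-K1 (chromosome 17, 33996012 to 34000619) had 17231 and 20521 reads, or 957 and 1196 CPM, a ratio of 0.32 (0.29 to 0.35). The 2 differed in size, and the TPM of H2-D1 was 3.35 times that of H2-K1 in WT and 2.99 times in Spib_KO. B2m (chromosome 2, 122147687 to 122153082) had 19739 and 23529 reads, or 1097 and 1371 CPM, a ratio of 0.32 (0.29 to 0.35). Differences of this size were common: 42.7% of measured genes were at least as far from 0 as B2m and 69.1% at least as far as H2-D1. Summed over the 18 heavy chain genes, the level was 4993 CPM in WT and 5691 in Spib_KO. The log2 ratio of this sum was 0.19 (0.18 to 0.20), and 0.0865 with tuft marker scaling. H2-T23, the heavy chain of Qa-1 (chromosome 17, 36029977 to 36032701), lay beside B2m and H2-K1. It had 5186 and 6162 reads, or 288 and 359 CPM, a ratio of 0.32 (0.26 to 0.37).

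The Qa-2 genes stood furthest above 0 among the 27. They encode heavy chains of a non-classical family, some of them anchored to the membrane by a lipid. H2-Q6 (chromosome 17, 35424850 to 35430055) had 303 reads in WT and 855 in Spib_KO, or 16.8 and 49.8 CPM. It rose by a log2 ratio of 1.56 (1.37 to 1.76), and 3.21% of measured genes were at least as far from 0. H2-Q9 had 59 and 256 reads, or 3.28 and 14.9 CPM. It rose by 2.18 (1.77 to 2.62), and 1.85% of measured genes were at least as far from 0. H2-Q9 counted as measured only through the Spib_KO library, where it was high, and with a CPM minimum of 20 it was not measured and H2-Q6 alone was called. H2-Q7 (chromosome 17, 35439140 to 35443773) had 284 and 613 reads, or 15.8 and 35.7 CPM. Its ratio was 1.18 (0.97 to 1.39), just short of the bound, and 5.74% of measured genes were at least as far from 0. Summed, a grouping made after their values were seen, the 3 had 646 reads in WT and 1724 in Spib_KO, or 35.9 and 100.5 CPM. Their log2 ratio was 1.48 (1.35 to 1.62), which is 2.80-fold, though they share sequence with genes outside this sum, as given below. They remained a small part of the heavy chain transcripts, with 0.82% of the summed heavy chain TPM in WT and 1.83% in Spib_KO.

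The other genes of the Q region lay below 0. They are non-classical heavy chain genes, and H2-Q10 is known for a secreted product. H2-Q4 (chromosome 17, 35379617 to 35384674) had 213 reads in WT and 111 in Spib_KO, or 11.8 and 6.47 CPM. Its log2 ratio was -0.87 (-1.22 to -0.53). It was the lowest of the 27, and 10.3% of measured genes were at least as far from 0. H2-Q2 (chromosome 17, 35342307 to 35346764) had 2348 and 1540 reads, or 130 and 89.7 CPM, a ratio of -0.54 (-0.63 to -0.45). The intervals of the remaining pair both held 0. H2-Q1 had 46.3 and 42.5 CPM, a ratio of -0.12 (-0.27 to 0.02), and H2-Q10 had 10.6 and 8.86 CPM, a ratio of -0.25 (-0.57 to 0.06). Summed, these 4 genes had 199 CPM in WT and 148 in Spib_KO, a ratio of -0.43 (-0.51 to -0.36). All 7 Q genes together had 4230 reads in WT and 4257 in Spib_KO, or 235 and 248 CPM, a ratio of 0.08 (0.02 to 0.14) that was -0.02 with tuft marker scaling. The Q genes thus differed in their share of a nearly equal total.

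Along chromosome 17 the change of sign fell between neighbours. H2-Q1, H2-Q2 and H2-Q4 lie in this order before H2-Q6 and H2-Q7, and H2-Q10 follows. H2-Q4 and H2-Q6, next to each other among the measured genes, had ratios of -0.87 and 1.56. By exact letters AGTTTCACTT is in both promoters printed above, and GGGGATTCCC in that of H2-Q6 but not of H2-Q4. Whether either site bears on these ratios was not tested. H2-Q9 has no position here because the RefSeq table places it on another sequence.

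**Figure D3:**
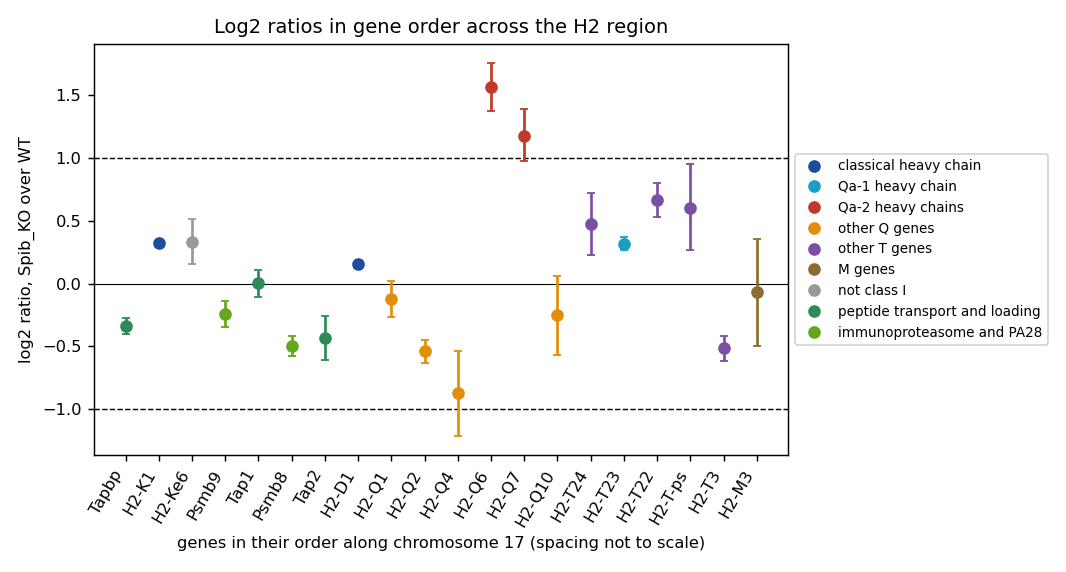
Log2 ratio of Spib_KO over WT for the measured genes of the H2 region in their order along chromosome 17, with spacing not to scale. Bars are 95% intervals for counting error only and dashed lines mark a 2-fold difference. H2-Q6 and H2-Q7 stand above 1 between H2-Q4 at -0.87 and H2-Q10 at -0.25.

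The T and M genes other than H2-T23 took both directions, and 0 of the 5 measured were called. H2-T22, whose product is a ligand of some gamma delta T cell receptors, had 743 reads in WT and 1121 in Spib_KO, or 41.3 and 65.3 CPM. Its log2 ratio was 0.66 (0.53 to 0.80), and 16.9% of measured genes were at least as far from 0. Its near copy H2-T10, which the RefSeq table lists as a transcribed pseudogene, had 15 and 55 reads and was not measured. Summed, the pair had 758 and 1176 reads, a ratio of 0.70 (0.57 to 0.84). H2-T3 (chromosome 17, 36185571 to 36190151), a gene of the thymus leukaemia antigen, went the other way. It had 2058 and 1372 reads, or 114 and 79.9 CPM, a ratio of -0.52 (-0.62 to -0.42). H2-T-ps, a pseudogene by its name but protein coding in the RefSeq table, had 6.89 and 10.5 CPM, a ratio of 0.60 (0.27 to 0.95), and H2-T24 had 13.3 and 18.5 CPM, a ratio of 0.47 (0.23 to 0.72). The 6 T genes other than H2-T23 summed to 178 CPM in WT and 179 in Spib_KO, with H2-T3 lower and H2-T22 higher. H2-M3, which presents N-formylated peptides, had 99 and 90 reads, a ratio of -0.07 (-0.50 to 0.36). H2-T18 had 16 and 18 reads and H2-M9 had 1 and 0, too few to compare. H2-Ke6, the dehydrogenase gene, had 26.6 and 33.4 CPM, a ratio of 0.33.

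Heavy chain genes share sequence, which bears on how their reads were divided. In the deposited table the count was whole in both libraries for 8 of the 11 genes other than H2 and for 2 of the 18 heavy chain genes, and counts that are not whole arise where a counting program divides reads between genes or transcripts. In GENCODE M21 transcripts, not the authors' annotation, 28 of the 30 genes were matched by symbol, H2-Q9 and H2-T18 not among them. For the 16 matched heavy chain genes, 0.576% to 43.9% of the 50-base stretches of the transcripts occurred in another gene (median 19.2%). For 100-base stretches this was 0 to 17.2% (median 4.59%). H2-Q7 shared 34.9% of its 50-base stretches, among them 17.4% with H2-Q5 and nearly as many with H2-Q6, and H2-Q6 shared 32.0% of its own, with 13.9% of all its stretches in H2-Q7 and 12.3% in H2-Q4. H2-T22 shared 37.5% with H2-T10. H2-D1 shared 13.9%, H2-K1 6.87%, H2-T3 1.19% and B2m 0. H2-T10 (42.9%), H2-T-ps (29.4%), H2-T23 (28.8%), H2-Q4 (24.3%) and H2-Q1 (22.3%) also shared more than the median. The gene by gene values of these genes are therefore uncertain, the contrast of H2-Q4 with H2-Q6 included, and sharing was not measured for H2-Q9. A sum does not depend on how reads were divided among the genes summed. It does depend on reads shared with genes outside it, which for the Qa-2 sum include H2-Q4, H2-Q5 and H2-D1. H2-Q6 shared 5.45% of its 50-base stretches with H2-D1, and H2-Q7 7.37%. In WT H2-D1 had 59907 reads, against 646 for the Qa-2 sum. The transcript length implied by the deposited FPKM of H2-Q7 was 112.6% of the WT value in Spib_KO. For the other measured class I pathway genes it was 97.4% to 106.8%, and genes outside the pathway were not included in this range.

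**Figure D4:**
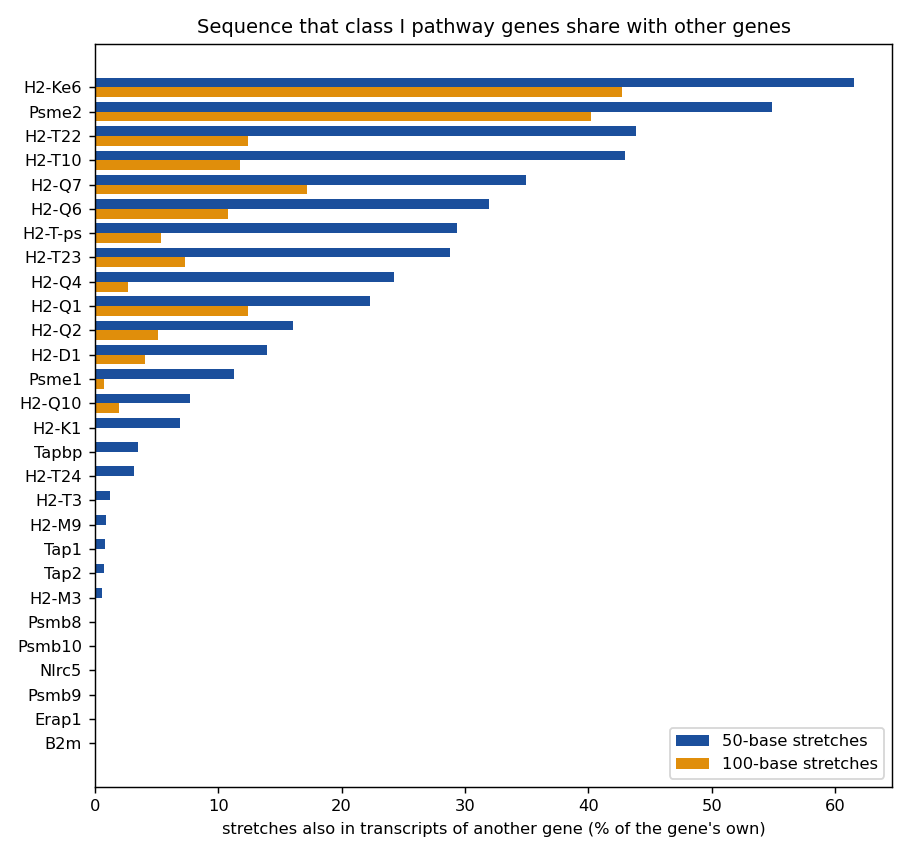
Share of each gene's 50-base and 100-base transcript stretches that also occur in a transcript of another gene, in percent, for the 28 genes matched in GENCODE M21. H2-Ke6, Psme2, H2-T22, H2-T10, H2-Q7 and H2-Q6 share more than 30% of their 50-base stretches, while B2m, Psmb8, Psmb9 and Psmb10 share 0.

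Peptide transport and loading genes were near or below 0, and 0 of 4 were called. Tapbp encodes tapasin, which holds empty class I molecules at the transporter. It had 4671 reads in WT and 3522 in Spib_KO, or 260 and 205 CPM, a log2 ratio of -0.34 (-0.40 to -0.28). The 2 transporter subunits did not move alike. Tap1 had 1433 and 1370 reads, or 79.6 and 79.8 CPM, a ratio of 0.00 (-0.10 to 0.11) whose sign changed with the scaling. Tap2 had 642 and 454 reads, or 35.7 and 26.5 CPM, a ratio of -0.43 (-0.61 to -0.26). The TPM of Tap1 was thus 1.86 times that of Tap2 in WT and 2.52 times in Spib_KO. Erap1, the trimming peptidase, had 107 and 97.9 CPM, a ratio of -0.13. It overlaps Cast, whose ratio was -0.16, and reads without strand do not separate them. Together the 4 genes had 482 and 409 CPM, a ratio of -0.24 (-0.28 to -0.19).

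All 5 genes of the immunoproteasome and of its activator PA28 lay below 0, and 0 were called. Psmb8, the inducible counterpart of Psmb5 (chromosome 17, 34198195 to 34201454), had 3207 reads in WT and 2164 in Spib_KO, or 178 and 126 CPM. Its ratio of -0.50 (-0.58 to -0.42) was the lowest of the 5, and 25.9% of measured genes were at least as far from 0. Psmb9, the counterpart of Psmb6, had 98.9 and 83.6 CPM, a ratio of -0.24 (-0.34 to -0.14). Psmb9 and Tap1 start 226 bases apart and run away from each other, and their ratios were -0.24 and 0.00. Psmb10, the counterpart of Psmb7, had 305 and 282 CPM, a ratio of -0.11 (-0.17 to -0.06). Psme1, a PA28 subunit, had 232 and 192 CPM, a ratio of -0.27 (-0.33 to -0.20). Its partner Psme2 had 427 and 360 CPM, a ratio of -0.25 (-0.29 to -0.20), and the TPM of Psme2 was 2.07 times that of Psme1 in WT and 2.10 times in Spib_KO. Psme1 overlaps Emc9, whose ratio was 0.40, and Psme2 shares 54.9% of its 50-base stretches with Psme2b, which had 35 and 24 reads. Summed over the 5 genes, 22334 reads in WT stood against 17932 in Spib_KO, a ratio of -0.25 (-0.28 to -0.22).

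The constitutive counterparts were near 0. Of 17 measured genes of the 20S core, its maturation and other activators, 0 were called. Their log2 ratios ran from -0.27 to 0.21 with a median of 0.06, or -0.04 with tuft marker scaling. Psmb5 had a ratio of 0.09, Psmb6 of 0.19 and Psmb7 of 0.09. In TPM, Psmb8 stood at 0.567 times Psmb5 in WT and 0.382 times in Spib_KO. Psmb9 stood at 0.286 and 0.207 times Psmb6, and Psmb10 at 1.45 and 1.27 times Psmb7. Each inducible subunit was thus lower in Spib_KO relative to the constitutive subunit it replaces, by less than 2-fold, with no replicate to set this against. Among 11 endoplasmic reticulum chaperones and loading factors 0 were called, and the median was -0.09. The most abundant by CPM, Hspa5, a chaperone that binds unfolded proteins, had a ratio of -0.28, and Pdia3, which works beside tapasin, one of 0.03. Of 9 measured peptidases 0 were called and 7 lay below 0, with a median of -0.26. Rnpep, an aminopeptidase, had 242 and 206 CPM, a ratio of -0.23.

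The regulators of class I transcription were not called in either direction, beside 2.33% of all measured genes called higher and 2.18% lower. Nlrc5, the transactivator of class I genes (chromosome 8, 94434335 to 94527272), had 633 reads in WT and 800 in Spib_KO, or 35.2 and 46.6 CPM, and its log2 ratio was 0.41 (0.25 to 0.56). Of 26 measured genes of class I transcription and interferon signalling, 0 were called, with 13 above 0 and 13 below and a median of -0.01. Irf7, an interferon-induced factor, had 473 and 514 CPM, a ratio of 0.12. Irf1, a related factor, had 187 and 182 CPM, a ratio of -0.04. At the low end were Nfya and Rfx5, subunits of factors that bind class I and class II promoters, named after their values were seen. Nfya had 221 and 90 reads, a ratio of -1.22 (-1.60 to -0.87), and Rfx5 had 156 and 72 reads, a ratio of -1.04 (-1.47 to -0.64). The interval of each reached inside the 2-fold bound. Other measured subunits of the same factors had ratios of 0.28 (Nfyb), 0.21 (Rfxank) and -0.27 (Nfyc). At the high end of the list were Nfkb1, with a ratio of 0.69, and Jak2, with 0.52.

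Class I-like molecules and ligands of natural killer receptors were fewer, with 5 of 13 measured, and 0 were called. Clec2d, a ligand of an inhibitory receptor of natural killer cells, had 96.0 and 65.1 CPM, a log2 ratio of -0.56. The related gene Clec2h had 88.3 and 46.6 CPM, a ratio of -0.92, and Fcgrt, the neonatal Fc receptor that also pairs with B2m, had 71.7 and 58.6 CPM, a ratio of -0.29. Hfe, an iron regulator that also pairs with B2m, was the 1 measured gene above 0, with 162 and 219 reads and a ratio of 0.50. The other 4 lay below 0, and the median was -0.56. MHC class II genes, which present peptides to CD4 T cells, were measured as a contrast. Of 5 measured, 4 fell and 0 rose, and their median was -2.72, while H2-DMa was not called at -1.04. Of the 4, Cd74, H2-Aa and H2-Eb1 counted as measured only through WT, where they were high. The summed level of the class II genes was 179 CPM in WT and 25.3 in Spib_KO, beside 4993 and 5691 CPM for the class I heavy chains.

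**Figure D5:**
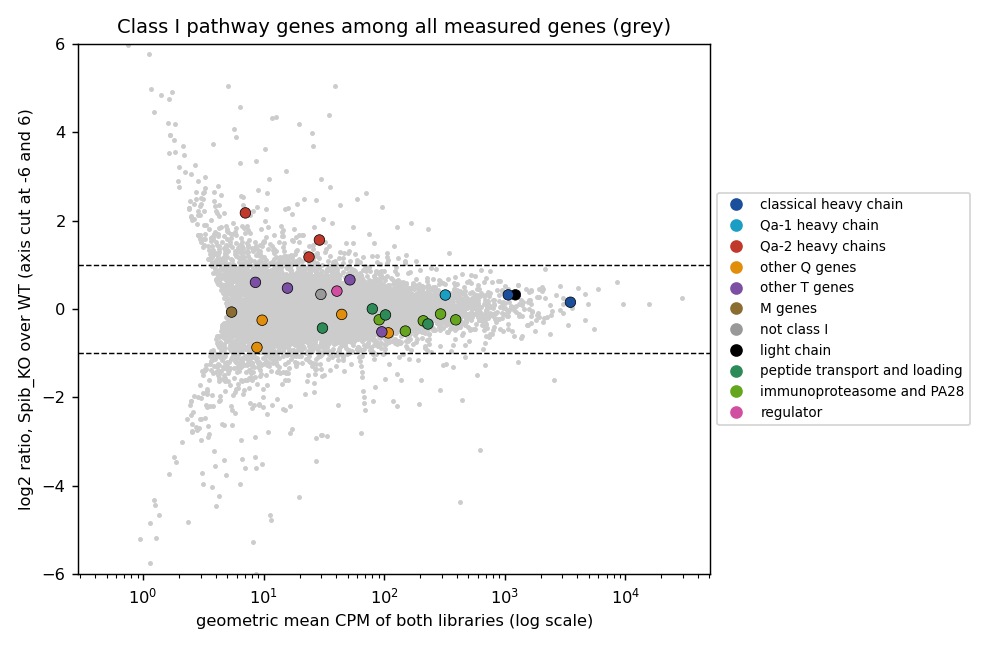
Log2 ratio of Spib_KO over WT against the geometric mean CPM of both libraries on a log axis, with every measured gene in grey and the class I pathway genes in colour. 31 genes lie outside the drawn range of the vertical axis. Among the coloured genes only H2-Q6, H2-Q7 and H2-Q9 lie above the 2-fold line, and 0 lie below -1.

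Markers of other cells that carry class I differed between the libraries. Of 5 measured markers of T cells and intraepithelial lymphocytes 4 fell and 0 rose, and the 14 in the table summed to 62.7 CPM in WT and 15.7 in Spib_KO. The 4 (Ccl5, Gzma, Cd7 and Itgae) counted as measured only through WT, where they were high, and Lck only through Spib_KO. Cd3d had 20 and 0 reads, while Lck, the measured marker that did not fall, had 80 and 135 reads, and Cd2 (2 and 11) and Cd8b1 (3 and 15) were also higher in Spib_KO. Of 3 measured myeloid markers 1 (Lyz2, measured only through WT) fell, and the 10 in the table summed to 36.2 and 23.1 CPM. C1qa, Csf1r and Tyrobp were at 0 in Spib_KO, while Adgre1 had 135 and 230 reads. The 5 B cell markers, of which 0 were measured, reached at most 2.78 and 2.16 CPM, with Cd79a at 7 and 0 reads and Pax5 at 8 and 37. The T cell and myeloid sums were thus lower in Spib_KO, while the enterocyte sum was higher. Of 11 enterocyte markers 0 were called, 8 lay below 0 and the summed level was 15919 and 17657 CPM, of which Fabp1 gave 6968 and 10611. Of 8 Paneth cell markers 7 fell, as did 3 of 7 goblet cell markers, and of 8 measured enteroendocrine markers 5 fell and 1 rose. The 5 enteroendocrine markers that fell, and Defa5 and Mptx2 of the Paneth markers, counted as measured only through WT. Gip, the enteroendocrine marker that rose, did so only through Spib_KO. The 7 endothelial and stromal markers reached at most 1.22 and 0.76 CPM. The part of these cells in the class I values was not tested.

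The table also holds class I-like genes with predicted names that the symbol rule does not take. Gm8909 had 980 and 781 reads, WT first, for a log2 ratio of -0.26, and Gm11127 had 495 and 386, a ratio of -0.29. Gm10499 had 268 and 184 reads, a ratio of -0.47, and Gm7030 had 14 and 26 reads, too few to be measured. The 3 measured genes lay on the side of H2-Q2 and H2-Q4. Each shares transcript stretches with heavy chain genes, and they were picked after their values were seen.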

How the data were processed

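Per the labels' protocols, TRIzol was used to extract RNA from the sorted cells, cDNA was amplified with SMART-Seq chemistry and a transposase made the libraries. The submitters' processing notes name HISAT, Bowtie2 2.2.3 and the build mm10. No source used here names the program or annotation behind the counts. The authors deposited read counts, FPKM and TPM for every gene in each library, per the file headers. These deposited counts are expected counts, as 19.0% of genes in WT and 18.6% in Spib_KO were not whole, and they were rounded.

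TMM scaling (edgeR 4.0.16, R 4.3.3) set the WT total to 17996059 and that of Spib_KO to 17161039. Ratios used a prior count of 0.5. Intervals were exact binomial (Clopper-Pearson) for ratios and exact Poisson for levels, at 95%. They cover counting error only and treat each read as a separate molecule. Reads from amplified cDNA with no molecular identifiers can repeat a molecule, so the intervals can be too narrow even for counting error. The procedure was tested on simulated data. These held counting error only, so that test does not bear on amplification, shared reads or differences between mice. TPM served to compare genes, and TPM and FPKM were alternatives on log2(value + 1). Positions of 28 of the 30 genes come from the RefSeq table of GRCm38.p6. Promoters were aligned locally with Biopython 1.88. Python 3.11.15, pandas 2.3.3 and scipy 1.17.1 were used.

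Every class I pathway gene with 30 reads or more was named, in full if among the 12 highest by TPM or past 0.5 on the log2 scale, with up to 3 genes of each other list. The members and lists were chosen with earlier results of these data known.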

Additional observations from a re-analysis of the deposited data

How the results depend on the processing

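No paired analysis was possible because there was 1 library per genotype. The library scaling, the filter on low counts, the prior count, the unit, the rule for a call and the depth of the WT library were changed in turn. Of 336 ratios of class I pathway genes under 12 alternatives, 6 changed sign, all of them of Tap1, whose ratio was 0.00. Changes of the filter and of the call rule leave a ratio as it is, so those of the 336 could not change sign. H2-Q6 stayed between 1.45 and 1.58, H2-Q7 between 0.95 and 1.19 and H2-Q9 between 1.80 and 2.19. The number called lower was 0 throughout. The number called higher was 1 with a CPM minimum of 20, which H2-Q9 did not reach. It was 3 without the filter, where H2-T10 was added, and under each looser call rule on the counts, where H2-Q7 was added. With TPM and with FPKM it was 2, as H2-Q7 was at 0.96 and 0.95, short of 2-fold. The median log2 ratio ran from -0.17 with tuft marker scaling to -0.03 without the filter, and was -0.09 without H2-Ke6. The summed heavy chain level had a log2 ratio of 0.0865 with tuft marker scaling and of 0.17 with TPM and with FPKM, where the main value was 0.19. Over all measured genes the calls were 595 higher and 716 lower without the filter, 101 and 106 with a CPM minimum of 20, 598 and 591 at a bound of 1.5-fold, and 425 and 419 on the point estimate. With TPM 203 were higher and 256 lower, and with FPKM 165 and 226, so that lower calls outnumbered higher ones. Calls in these units used the point estimate, with a minimum of 5 TPM or FPKM in either library. Their nearest match among the counts is thus the 425 and 419 of the point estimate. The main counts of 250 and 233 used the interval bound. Depth limits H2-T10, H2-T18 and H2-M9, which had at most 55 reads in a library.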
